A study of Mus musculus and Rattus norvegicus with 26 samples.

Results

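The genes described here are 9 regulators of transcription in brown fat: Pparg, Rxra, Ppargc1a, Ppargc1b, Prdm16, Ebf1, Ebf2, Ebf3 and Zfp423. Their intronic contigs were taken from 6 lists by gene symbol, which gave 80 of 112345 contigs and 8 of the 13695 genes with a contig. A contig is a stretch of an intron in which the study joined neighbouring RNA-seq reads. Gaps between the reads were allowed, so part of a contig may hold no read. Rxra had no contig in any list. Intron-retaining transcripts found in the cytoplasm are called CIRTs, and the lists hold candidates for them.

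The study surveyed intronic reads in dendrites and somas of hippocampal neurons and compared them with non-neuronal cells. Each list pools the libraries of a group, so every value below comes from 1 list and has no error between cells, and no test between lists was possible. BAT cells (6 libraries by the labels) were single mature brown adipocytes, picked by their morphology after plating, from interscapular brown adipose tissue of CD-1 mouse embryos at E17.5. Cardiomyocytes (9 libraries) came from ventricles of E14.5 embryos of a transgenic C57BL/6 line hemizygous for the Fucci reporter mAG-hGem, a green fluorescent cell cycle probe under the ubiquitous CMV promoter, and had been flow sorted for fluorescence and viability. The neurons came from hippocampi of E18 embryos and were grown in culture, with 3 dendrite and 3 soma libraries of C57BL/6 mice and 2 dendrite and 3 soma libraries of Sprague-Dawley rats. A dendrite library pools many neurites cut by hand, while the somas, BAT cells and cardiomyocytes are whole cells that contain the nucleus. All RNA went through 3 rounds of aRNA amplification, which is primed by poly(T). A pooled list cannot tell many reads in 1 cell from few reads in each of them.

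Brown adipocytes burn fat to produce heat, and their identity is set by a small circuit of DNA-binding proteins and cofactors. Pparg, a nuclear receptor, drives the differentiation of all adipocytes and binds DNA as a dimer with a retinoid X receptor such as Rxra. The coactivators Ppargc1a and Ppargc1b raise mitochondrial genes, the zinc finger cofactor Prdm16 favours the brown over the muscle fate, Ebf2 marks brown fat precursors, and Zfp423 commits cells to the fat lineage and restrains heat-producing genes in white fat.

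The reads of the lists summed to 17858440 in BAT cells, 12201042 in cardiomyocytes, 1855447 in mouse somas and 3086576 in mouse dendrites, and to 2094541 and 1007530 in rat somas and dendrites. Reads of a gene are therefore also given per 1000000 reads of its list (RPM). Of 15 brown adipocyte markers 13 were listed in BAT cells, led by Fabp4 with 78875 and Plin1 with 13456 reads and with 6596 reads in Ucp1, the uncoupling protein of brown fat, while Elovl3 and Pnpla2 were not listed. Their summed level was 7009 RPM in BAT cells, 888 in cardiomyocytes, 167 in mouse somas and 195 in mouse dendrites. Fabp4 carried most of the BAT sum, and some markers had fewer RPM there than elsewhere. Lipe had 45.4 RPM in BAT cells and 538 in cardiomyocytes, Cidea 86.7 and 213, and Acsl1 52.7 RPM in BAT cells and 167 in mouse somas, although its raw reads were 941 and 310. The BAT list also held 8 of 15 cardiomyocyte markers (2800 RPM, with 26804 reads in Nkx2-5 and 12481 in Actn2, and no Myh7, Tnnt2 or Gata4) and 12 of 14 neuronal markers (2604 RPM, with 10226 reads in Dlg2 and 8295 in Gria4, and no Map2 or Rbfox3). Markers of endothelium (8 of 8, led by Ptprb with 8249 and Emcn with 4020 reads), of fibroblasts and preadipocytes (7 of 9, led by Col1a1 with 242 and Col3a1 with 195 reads), of skeletal muscle (6 of 10, led by Neb with 5807 and Ttn with 4191 reads) and of macrophages and blood (4 of 8, led by Ptprc with 2338 and Itgam with 508 reads) were present as well. In cardiomyocytes 12 of 15 cardiomyocyte markers were listed, at 30909 RPM, without Nkx2-5, Gata4 and Pln, and 6 of 15 brown adipocyte markers, including Lipe with 6564, Cidea with 2600 and Ucp1 with 899 reads. The part of other cells or of free RNA in the values below was not tested.

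Of the 9 regulators, 7 had a contig in BAT cells, 4 in cardiomyocytes, 3 in mouse somas, 4 in mouse dendrites, 3 in rat somas and 2 in rat dendrites. The same 7 genes make up all that were found in any mouse list. Over all 12467 genes of the mouse lists, 82.0% were listed in BAT cells, 49.8% in cardiomyocytes, 47.3% in mouse somas and 69.0% in mouse dendrites, and of 5712 genes of the rat lists 59.4% were listed in somas and 78.5% in dendrites. Among 19421 annotated protein-coding mouse genes with introns, the BAT list held 52.0%. A gene can be missing from a list because it had no intronic reads, because its reads did not align to a single place or because the authors removed the intron, so a missing gene is not a gene without expression.

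Summed over the regulators, the BAT list held 55272 reads (3095 RPM), of which Pparg took 94.9%. Cardiomyocytes held 297 reads (24.3 RPM), mouse somas 6 (3.23 RPM), mouse dendrites 1284 (416 RPM), rat somas 59 (28.2 RPM) and rat dendrites 1117 (1109 RPM). The high sum in rat dendrites was Ebf1, with 1115 of the reads. In BAT cells 3 of the 7 listed regulators, Pparg, Prdm16 and Ebf2, had an intron with at least 256 reads, and the same held for 40.2% of all genes of that list.

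**Figure D1:**
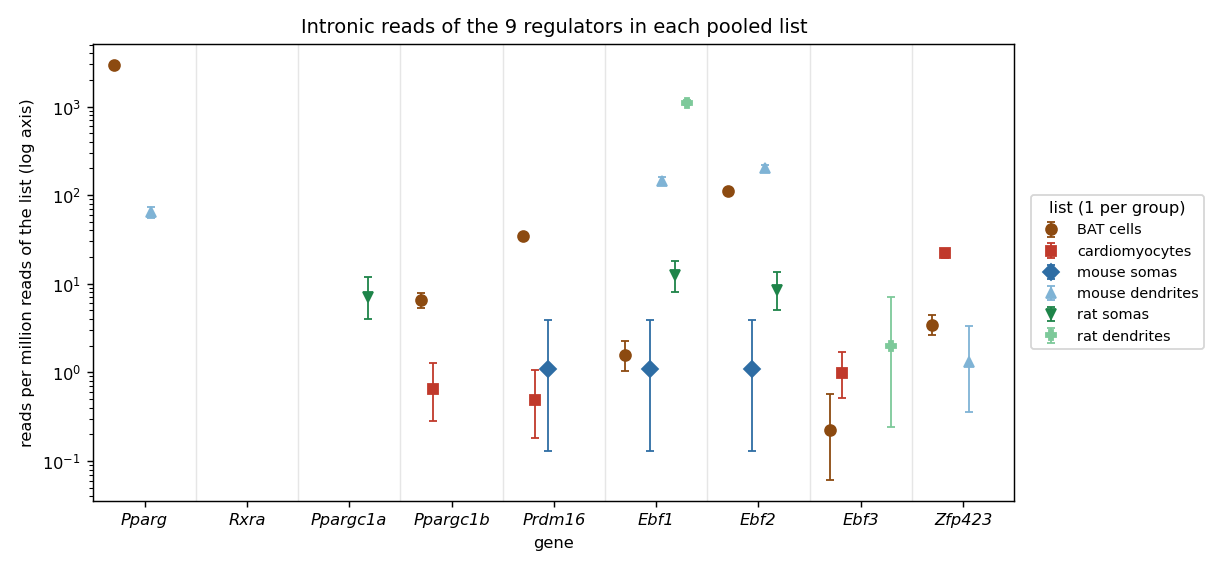
RPM of each gene (y axis, logarithmic) for the 9 genes (x axis) and the 6 pooled lists (symbols), with exact 95% Poisson intervals that cover counting error only; a gene without a symbol was not listed. Pparg in BAT cells stands highest at 2937 RPM, Ebf1 is highest in rat dendrites at 1107, and Rxra has no symbol.

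**Figure D2:**
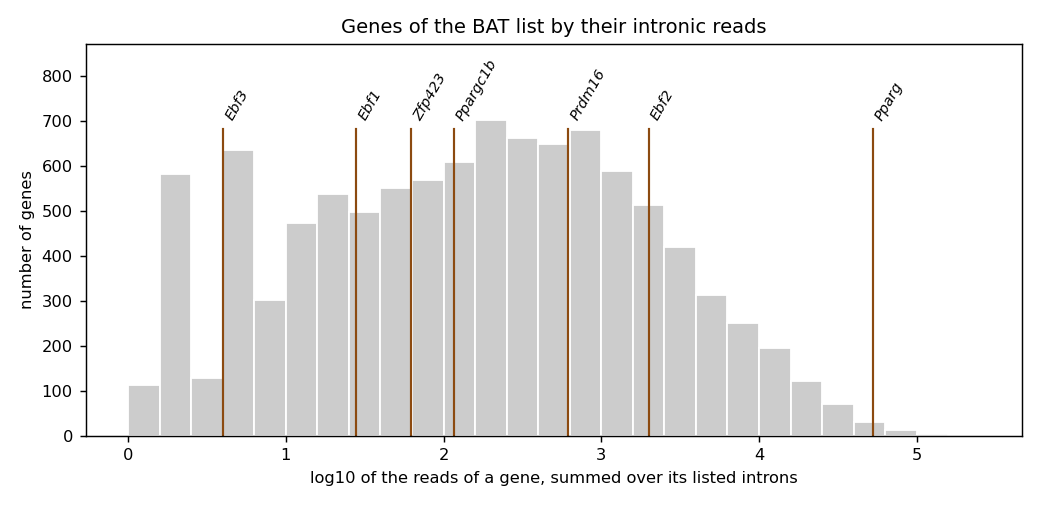
Number of genes of the BAT list (y axis) by the log10 of their summed intronic reads (x axis), with a line at each listed regulator. Pparg lies at the upper end with 52450 reads, and Ebf3 near the lower end with 4 reads.

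Pparg lies at chr6:115311239-115440419 on the plus strand of mm9. It had 52450 reads in BAT cells (95% Poisson interval 52002 to 52901), the 23rd highest of 10220 genes, and 99.8% of the listed genes had fewer. It had 198 reads in mouse dendrites (interval 171 to 228, 64.1 RPM) and was not listed in cardiomyocytes, mouse somas or either rat list. In BAT cells the reads were 625 in intron 3, 1521 in intron 4, 49886 in intron 5 and 418 in intron 6 of the 6-intron transcript. Introns 1 and 2 were not listed. Intron 5 alone thus took 95.1% of the reads of the gene and was 19th among the 30018 introns of the list, with 1346 reads per 100 nt of contig against a list median of 8.29. Introns 3, 4 and 6 stood between 39.4 and 52.2 reads per 100 nt, also above that median. In dendrites the order differed, with 144 reads in intron 3, 2 in intron 4 and 52 in intron 5.

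The 3 contigs of intron 5 in BAT cells measured 2436, 1086 and 183 nt and covered 38.7% of the 9575 nt of the intron, from 4528 nt past its 5′ splice site to 233 nt before its 3′ splice site. A count belongs to the intron, so the reads of a single contig are not known. The last 300 nt of the longest contig, chr6:115419968-115420267, lie within the 647 nt contig of the dendrite list. They are shown because contigs of both lists span them. Whether reads of both lists fell on each base is not known.
Pparg intron 5, shared stretch: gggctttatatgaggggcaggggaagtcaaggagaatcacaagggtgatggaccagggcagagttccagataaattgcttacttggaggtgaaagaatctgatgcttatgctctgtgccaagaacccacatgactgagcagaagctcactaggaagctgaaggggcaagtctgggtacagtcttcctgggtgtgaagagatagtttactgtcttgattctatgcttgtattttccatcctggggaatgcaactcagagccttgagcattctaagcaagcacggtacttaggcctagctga
The shortest contig, at chr6:115422463-115422645, is shown with the 60 nt that follow it up to position 115422705, since it stops 5 nt before a run of 25 adenines, printed in capitals.
Pparg intron 5, shortest contig: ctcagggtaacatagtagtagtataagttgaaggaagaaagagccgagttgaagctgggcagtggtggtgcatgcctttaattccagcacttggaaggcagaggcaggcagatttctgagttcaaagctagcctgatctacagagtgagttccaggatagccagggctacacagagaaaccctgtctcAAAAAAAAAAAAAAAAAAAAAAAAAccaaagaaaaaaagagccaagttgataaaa
Such a run can bind the poly(T) primer. To see how far a read could be placed, each contig was divided into stretches of 20 nt, and their copies in the mouse genome were counted on both strands. The copies of a stretch are not those of a read pair, and the authors counted reads that aligned, as pairs, to a single place. In the longest contig, which also holds 2 runs of 11 adenines farther inside, 111 of 121 stretches occurred a single time. Another 2 occurred at least 100 times, up to 202430. In the second contig 41 of 54 occurred a single time and 7 at least 100 times, up to 26211. In the third contig only 3 of 9 occurred a single time, and 5 occurred at least 100 times, up to 42538.

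**Figure D3:**
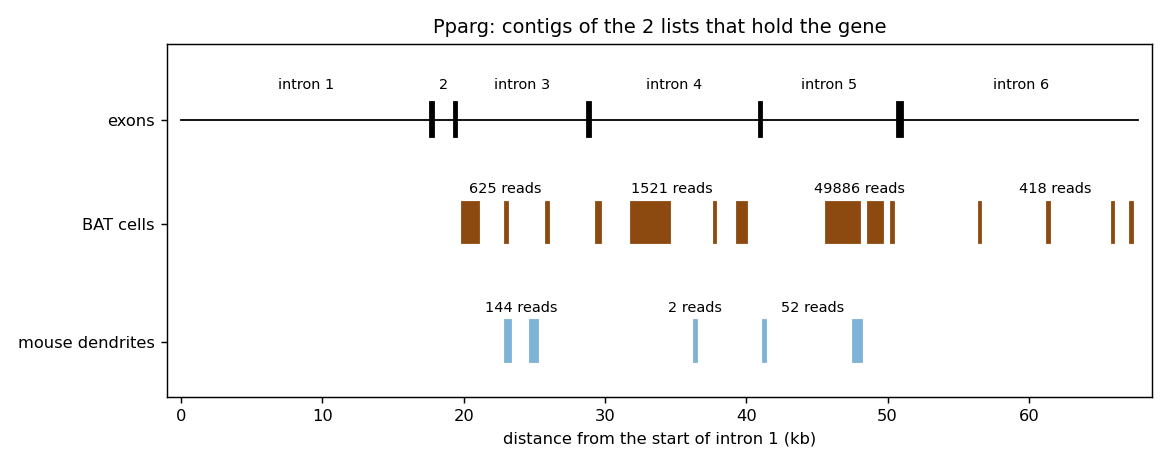
Contigs of Pparg in BAT cells and mouse dendrites (rows), placed by their distance in kb from the start of intron 1, below the exons (black boxes, short ones widened so that they can be seen); contigs are to scale apart from their outline; the numbers are reads of the intron. The BAT contigs reach from intron 3 to intron 6, with 49886 reads in intron 5, and 1 of 2 dendrite contigs in each of introns 3 and 5 overlaps them.

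Dendrite and BAT contigs of Pparg overlapped by 200 nt in intron 3 and by 512 nt in intron 5, and those of intron 4 did not overlap. Pparg shared its presence in BAT cells and dendrites and its absence from the other mouse lists with 1522 genes, 12.2% of the genes of the mouse lists. Its nearest neighbours by RPM over the 4 mouse lists were Plcxd2 (distance 0.0536 on the log10 scale), Fabp4 (0.233) and Olfm3 (0.355). Fabp4, which encodes the fatty acid binding protein of adipocytes, had 4417 RPM in BAT cells and 91.4 in dendrites.

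Rxra, the partner receptor of Pparg, was not listed in any of the 6 lists. Ppargc1a, a coactivator of Pparg with a central role in heat production, was not listed in mouse. It had 15 reads (interval 8.40 to 24.7) in intron 12 in rat somas, in a contig of 139 nt, the only trace of the gene.

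Ppargc1b, its relative, had 116 reads in BAT cells (interval 95.9 to 139, 6.50 RPM) and 8 in cardiomyocytes (interval 3.45 to 15.8, 0.656 RPM). Of the BAT reads 70 lay in intron 9, 25 in intron 11, 16 in intron 10, 4 in intron 2 and 1 in intron 3. The reads thus gathered at the 3′ end of the gene, in the last 3 of its 11 introns. The contig of intron 11, the last, took up 801 of its 802 nt, and it was the only intron of the regulators covered to at least 95%, against 11.5% of all listed BAT introns. All 122 stretches of 20 nt in its BAT contigs occurred a single time in the genome. In intron 10 the cardiomyocyte contig of 160 nt lay between the 2 BAT contigs without touching them. When longer contigs than 400 nt were left out, as the study did for whole cells, at most 21 of the 116 BAT reads remained, since an intron keeps its count while any of its contigs is kept.

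Prdm16 lies at chr4:153690234-154010982 on the minus strand. It had 619 reads in BAT cells (interval 571 to 669.7, 34.7 RPM), 6 in cardiomyocytes (interval 2.20 to 13.1). In mouse somas it had 2 (interval 0.242 to 7.22). In BAT cells 615 reads, 99.4%, lay in intron 4, in 1 contig of 281 nt at chr4:153729602-153729882 that ended 143 nt before the 3′ splice site. Intron 5 held the other 4 reads in BAT cells and all 6 in cardiomyocytes, in contigs that overlapped by 155 nt. The soma reads were in intron 14. Intron 4 was listed under 1 transcript of Prdm16 and introns 5 and 14 under another, and both transcripts have the same introns 4 and 5. No contig lay in introns 1 to 3, which measure 107791, 51895 and 109326 nt in the former and make up most of the gene. The BAT contig of intron 4 is shown with the 19 nt after it, down to position 153729583, because it carries nearly all reads of the gene; capitals mark a run of 10 adenines.
Prdm16 intron 4, BAT cells: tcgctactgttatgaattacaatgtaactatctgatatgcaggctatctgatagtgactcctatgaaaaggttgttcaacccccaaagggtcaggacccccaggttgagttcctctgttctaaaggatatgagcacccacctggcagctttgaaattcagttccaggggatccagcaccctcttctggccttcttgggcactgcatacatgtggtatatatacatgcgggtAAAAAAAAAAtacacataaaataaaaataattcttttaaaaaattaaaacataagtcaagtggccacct
In this contig 7 of 14 stretches of 20 nt occurred a single time and 1 occurred 651 times. The cardiomyocyte contig of intron 5 with the next 17 nt, chr4:153727092-153727291, is shown because both lists share it.
Prdm16 intron 5, cardiomyocytes: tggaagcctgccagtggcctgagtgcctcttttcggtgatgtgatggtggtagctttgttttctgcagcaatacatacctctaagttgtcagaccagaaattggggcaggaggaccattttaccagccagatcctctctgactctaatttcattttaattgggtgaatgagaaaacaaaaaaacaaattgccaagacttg
It holds no run of 10 adenines, and its 9 stretches occurred a single time each. In the soma contig of intron 14 only 1 of 9 stretches did, and 5 occurred at least 100 times, up to 19462. The genes nearest to Prdm16 over the mouse lists were Spop, Zfp949 and G3bp2, at distances of 0.126, 0.133 and 0.174.

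The Ebf genes encode related factors that bind DNA as dimers and act in fat, neurons and B cells. Ebf2 had the most reads of the 3 in BAT cells, with 1993 (interval 1906 to 2082, 112 RPM), followed by Ebf1 with 28 (interval 18.6 to 40.5, 1.57 RPM) and Ebf3 with 4 (interval 1.09 to 10.2, 0.224 RPM). The intervals do not overlap. Per length the order was the same, since the densest BAT intron had 74.0 reads per 100 nt of contig in Ebf2, 4.42 in Ebf1 and 2.48 in Ebf3. In mouse dendrites Ebf2 had 632 reads (interval 584 to 683, 205 RPM) and Ebf1 had 450 (interval 409 to 494, 146 RPM), and Ebf3 was not listed. In mouse somas Ebf1 and Ebf2 had 2 reads each. In rat, Ebf1 had 1115 reads in dendrites (interval 1051 to 1182), the 160th highest of 4485 genes, and 26 in somas, while Ebf2 had 18 reads in somas and Ebf3 had 2 in dendrites. Within each species Ebf1 thus had most RPM in dendrites, where its interval lay above those of the other lists. Markers of other cells differed between these lists as well. From mouse somas to mouse dendrites, endothelial markers went from 856 to 1814 RPM and skeletal muscle markers from 174 to 1438. Neb had 1283 of the latter. Macrophage and blood markers went from 169 to 443 RPM, fibroblast and preadipocyte markers from 66.8 to 313 and cardiomyocyte markers from 86.8 to 1018. Neuronal markers went from 32257 to 3753 RPM. Members of a set differed. In RPM, Flt1, Emcn and Ptprb rose while Kdr, Cdh5 and Tek fell. Itgam and Mrc1 rose while Ptprc fell, and Rbfox1 rose while most neuronal markers fell. From rat somas to rat dendrites, fibroblast and preadipocyte markers went from 0.955 to 348 RPM and macrophage and blood markers from 60.6 to 761. Itgam had 696 of the latter, and Ptprc was listed in somas alone. Endothelial markers went from 183 to 256 RPM, skeletal muscle markers from 8.59 to 74.4 and brown adipocyte markers from 1.43 to 96.3. Cardiomyocyte markers, mostly Cacna1c in somas, went from 1608 to 79.4 RPM and neuronal markers from 16180 to 5673. The part of other cells in the values of Ebf1 was not tested.

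Ebf2 lies at chr14:67852129-68048604 on the plus strand. Its BAT reads were spread over intron 8 (1055 reads), intron 6 (503), intron 16 (305) and intron 11 (130). Its dendrite reads lay in the same introns except intron 16, with 608 in intron 8, 22 in intron 11 and 2 in intron 6. Intron 8 was the only intron of the 9 genes listed in BAT cells, somas and dendrites of the mouse. The BAT contig chr14:67998120-67998832, the dendrite contig chr14:67998479-67998834 and the soma contig chr14:67998597-67998799 lie over each other and stop near a run of adenines. BAT reads reached 25 of its 26 adenines, dendrite reads passed it by 1 nt, and the soma contig stopped 8 nt before it. The soma contig is shown with the 60 nt after it, up to position 67998859, and the run in capitals.
Ebf2 intron 8: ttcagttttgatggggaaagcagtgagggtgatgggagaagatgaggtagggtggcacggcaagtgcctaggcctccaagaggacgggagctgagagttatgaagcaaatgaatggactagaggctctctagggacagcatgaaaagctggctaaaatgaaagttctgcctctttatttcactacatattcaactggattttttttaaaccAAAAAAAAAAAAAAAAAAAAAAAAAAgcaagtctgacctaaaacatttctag
All 10 stretches of 20 nt of the soma contig occurred a single time in the genome. Over the 6 BAT contigs of the gene 179 of 238 did, and 4 of these contigs held a stretch found at least 100 times. Over the 6 dendrite contigs 69 of 81 did, and 1 contig held such a stretch. Intron 7, with 124613 nt the longest of the gene, held no contig in any mouse list. Without contigs longer than 400 nt only intron 11 was left in BAT cells, with at most 130 of the 1993 reads. The nearest genes were Lrguk, Hspbp1 and Ndst3, at distances of 0.140, 0.169 and 0.170.

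**Figure D4:**
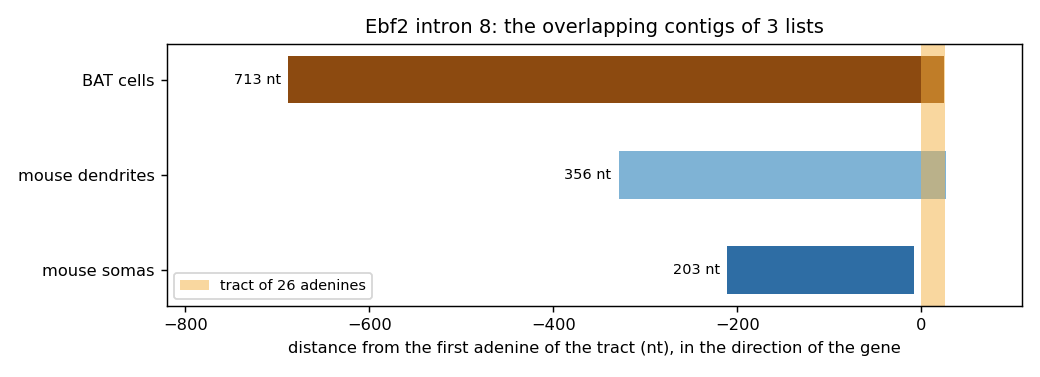
The overlapping contigs of Ebf2 intron 8 in BAT cells, mouse dendrites and mouse somas (rows) by their distance in nt from the first adenine of a tract of 26 (shaded). The contigs of 713, 356 and 203 nt begin at different places, and their ends lie 8 nt before the tract (somas), within it (BAT cells) and 1 nt past it (dendrites).

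Ebf1 lies at chr11:44430819-44821593 on the plus strand. In dendrites 329 of its 450 reads were in intron 7, 84 in intron 8 and 33 in intron 9, and introns 4 and 14 had 2 each. The same introns 7, 8 and 9 held 7, 10 and 4 reads in BAT cells, and none of their BAT contigs overlapped a dendrite contig. Intron 15 had 4 reads in BAT cells and 2 in somas, again without overlap, and intron 2 had 3 reads in BAT cells. In rat dendrites 745 reads lay in intron 6 and 370 in intron 10, and in rat somas all 26 lay in intron 6. In the mouse transcript introns 6 and 10 measure 225622 and 48288 nt and were not listed in any mouse list. Intron numbers were counted in each species' own transcript, and whether rat and mouse introns of a number match was not tested. Ebf3 had its mouse reads in intron 11, 4 in BAT cells and 12 in cardiomyocytes, in contigs that did not overlap, and its 2 rat dendrite reads in intron 6. The genes nearest to Ebf1 were Morc2a, Neto1 and Pigb (0.0415, 0.0993 and 0.107), and those nearest to Ebf3 were Tnni2, Cmtm5 and Kin (0.0183, 0.0194 and 0.0267).

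Zfp423 lies at chr8:90185709-90483494 on the minus strand. It was listed in intron 1 alone, which measures 54647 nt, with 62 reads in BAT cells (interval 47.5 to 79.5, 3.47 RPM), 271 in cardiomyocytes (interval 239.7 to 305, 22.2 RPM) and 4 in mouse dendrites (interval 1.09 to 10.2, 1.30 RPM). It was the only regulator with more RPM in cardiomyocytes than in BAT cells by intervals that do not overlap. The 5 BAT contigs were scattered from 5563 nt past the start of the intron to 15370 nt before its end, and the 2 dendrite contigs overlapped 2 of them, by 105 and 79 nt. Neither cardiomyocyte contig overlapped a BAT contig, and 1 of them touched an exon of the annotated transcript Zfp423-005, so that its reads may belong to an exon. The other, with the 60 nt after it, chr8:90430729-90431019, and the BAT contig with the 60 nt after it, chr8:90443758-90443963, are shown because they lie far apart in the intron and still share a stretch of 42 identical nt; runs of at least 10 adenines are in capitals.
Zfp423 intron 1, cardiomyocytes: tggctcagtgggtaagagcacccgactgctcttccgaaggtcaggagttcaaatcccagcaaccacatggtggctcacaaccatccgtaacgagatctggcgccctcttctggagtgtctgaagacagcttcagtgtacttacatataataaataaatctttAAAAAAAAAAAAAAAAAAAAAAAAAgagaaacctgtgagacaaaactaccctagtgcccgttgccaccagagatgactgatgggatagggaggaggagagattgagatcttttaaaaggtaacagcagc
Zfp423 intron 1, BAT cells: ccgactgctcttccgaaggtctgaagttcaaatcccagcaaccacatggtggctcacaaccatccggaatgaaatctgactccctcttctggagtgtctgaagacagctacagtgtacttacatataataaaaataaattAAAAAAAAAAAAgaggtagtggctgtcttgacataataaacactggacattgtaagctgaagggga
The adenine runs measure 25 and 12 nt. In this cardiomyocyte contig 1 of 11 stretches occurred a single time and 9 occurred at least 100 times, up to 45051, and in the BAT contig none of 7 was single and 5 occurred at least 100 times. Part of the covered sequence of Zfp423 thus has many copies. The nearest genes to Zfp423 were Unc45b, Ubxn8 and Hat1 (0.132, 0.137 and 0.169), and those to Ppargc1b were Gsn, 2310042D19Rik and Ddx52 (0.0210, 0.0302 and 0.0587).

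Which regulators differed between brown fat and heart cells was asked for the 4 genes in both lists. Prdm16 had 70.5-fold higher RPM in BAT cells (95% exact interval of the ratio of counts 32.2 to 193), and Ppargc1b was 9.91-fold higher (interval 4.86 to 23.5). Zfp423 had a BAT to cardiomyocyte ratio of 0.156 (interval 0.117 to 0.207) and Ebf3 of 0.228 (interval 0.0535 to 0.751). These intervals take each read as independent, although the mates of a pair are not, so they are too narrow where both were counted. The median ratio of the 5442 genes in both lists was 1.25. At a 4-fold threshold, 2 of 4 regulators were called higher and 2 lower in BAT cells, beside 34.3% and 28.3% of all genes in both lists, so calls in either direction were common in these lists. Pparg, Ebf1 and Ebf2 were listed in BAT cells and not in cardiomyocytes, and no ratio is given for them. The call of Ebf3 was lost with raw reads and with reads divided by the median of the list. The call of Ppargc1b was lost when contigs longer than 400 nt were left out of both lists, an alternative chosen after seeing the data, where 21 BAT reads against 8 gave a ratio of 1.59 (interval 0.678 to 4.16), which still counts the reads of a left-out contig of intron 10. Prdm16 then had a ratio of 62.6 and was the 1 regulator called higher, beside 34.4% of 4309 genes.

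Against mouse somas 3 regulators could be compared, each on 2 soma reads. Ebf2 had a BAT to soma ratio of 104 (interval 28.6 to 856), Prdm16 of 32.2 (interval 8.86 to 266) and Ebf1 of 1.45 (interval 0.367 to 12.6). The median over 5076 genes was 0.771. Ebf2 and Prdm16 were called 4-fold higher in BAT cells, beside 26.7% of all genes in both lists, and 0 were called lower, beside 33.7%. With 2 soma reads each, which may be the mates of a single pair, these ratios are loose. Without contigs longer than 400 nt the ratio of Ebf2 was 7.50 (interval 2.04 to 62.6), with 24.5% of all genes called higher. That ratio still counts the reads of a left-out contig of intron 11, so whether Ebf2 keeps its call is not known. With raw reads Ebf1 passed the threshold too, and the median of all genes moved from -0.38 to 2.89 on the log2 scale. The share of higher among all called genes then went from 44.2% to 82.9%, and to 63.8% with reads divided by the median of the list.

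Of the 103 introns of the 8 regulator transcripts in BAT cells (Prdm16 counts with 2, which share most introns), 22 held a contig, 21.4% (exact 95% binomial interval 13.9 to 30.5), and the share was 21.8% over the introns of the other listed transcripts. In cardiomyocytes it was 4 of 49 (8.16%, against 14.7%), in somas 3 of 47 (6.38%, against 11.9%) and in dendrites 12 of 44 (27.3%, against 15.8%, a share that its 95% interval includes). With at least 32 reads in the intron the shares were 19.3% against 14.6% in BAT cells, 14.3% (1 of 7 introns) against 11.9% in cardiomyocytes and 16.2% against 10.7% in dendrites, so in BAT cells and cardiomyocytes the order turned. Introns of 1 gene are not independent, and the intervals cover counting error only. By length, BAT contigs lay in 17 of 45 introns of 2000 to 20000 nt (37.8%), in 3 of 41 shorter ones (7.32%) and in 2 of 17 longer ones (11.8%). The other transcripts had shares of 31.7%, 14.7% and 32.2% in these classes. The long introns of the regulators, such as introns 1 to 3 of Prdm16, intron 6 of Ebf1 and intron 7 of Ebf2, were thus seldom listed, while the interval of 1.46 to 36.4 for the longest class still includes the share of the others.

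**Figure D5:**
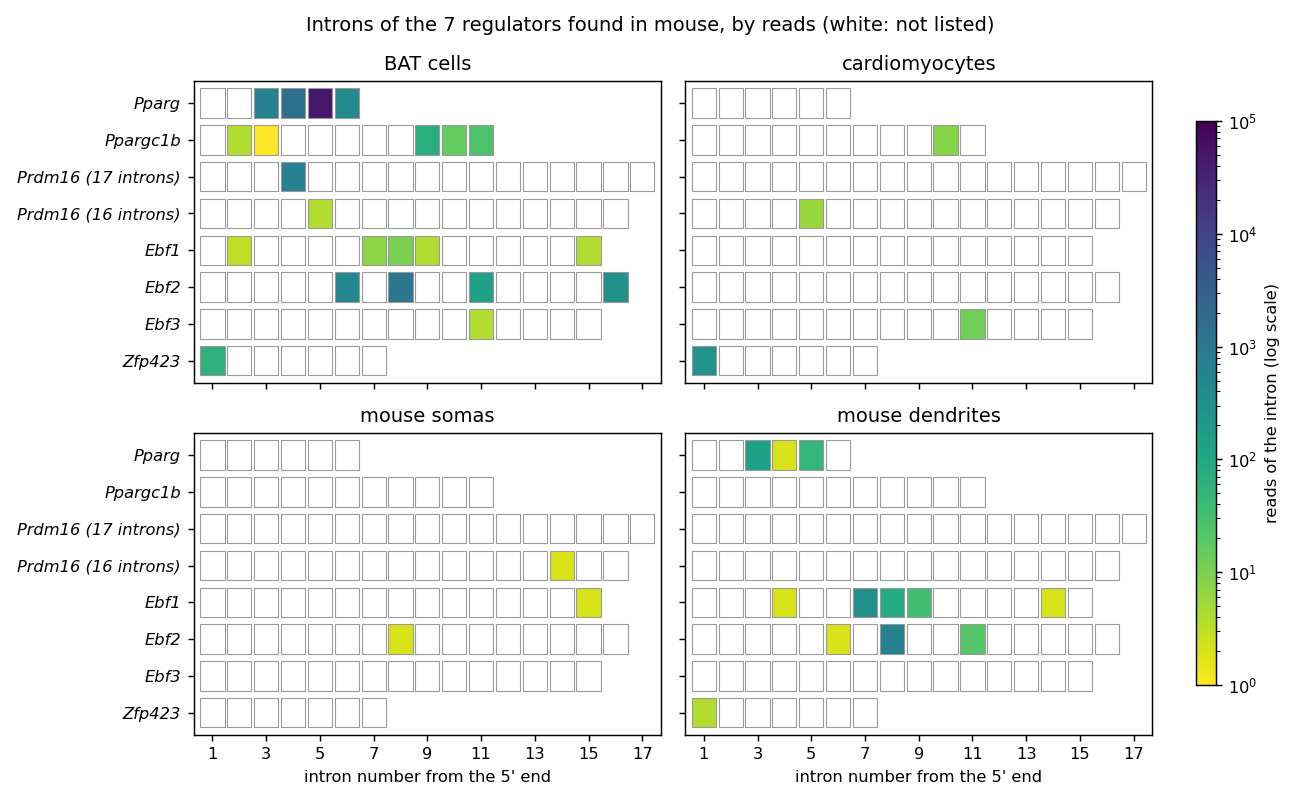
Introns of the 8 mouse transcripts of the 7 listed regulators (rows; Prdm16 is listed under 2 transcripts), numbered from the 5′ end (x axis), in the 4 mouse lists; the colour gives the reads of the intron on a logarithmic scale, and white introns were not listed. BAT cells fill 22 introns and dendrites 12, with Ebf1 introns 7 to 9 and Ebf2 introns 6, 8 and 11 filled in both.

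The regulators had 25 different introns in the mouse lists, of which 11 (44.0%) were in 1 list, 12 (48.0%) in 2 and 2 in 3, beside 60.5%, 25.7% and 10.1% of all introns. BAT cells and dendrites shared 10 of them, in Pparg, Ebf1, Ebf2 and Zfp423, and the contigs overlapped by at least 1 base in 5, with 44.0% over all introns shared by these lists. BAT cells and cardiomyocytes shared 4, with overlap in 1, intron 5 of Prdm16, where the share over all introns was 65.3%. BAT cells and somas shared intron 8 of Ebf2 and intron 15 of Ebf1 and overlapped in the former, with 52.4% over all introns. Somas and dendrites shared intron 8 of Ebf2 with overlap, beside 58.0% over all introns.

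On the gene's own strand, an A tract (10 adenines or more) began within 300 nt after 4 of the 41 BAT contigs (9.76%, interval 2.72 to 23.1), and after 7.36% of all BAT contigs. They followed the third contig of Pparg intron 5 after 5 nt, a contig of Ebf2 intron 11 after 19 nt, and contigs of Ppargc1b introns 10 and 11 after 10 and 278 nt. This count misses contigs that run into a tract, as in intron 8 of Ebf2. When the search began 60 nt inside the contig, an alternative chosen after seeing the data, 7 BAT contigs had a tract (17.1%, interval 7.15 to 32.1), with 11.5% over all BAT contigs. Of the 3 soma contigs 2 were followed by a tract, in Ebf2 intron 8 after 8 nt and in Prdm16 intron 14 after 7 nt, and the share over all soma contigs was 18.6%. In dendrites it was 1 of 19, in Zfp423, with 8.11% over all contigs.

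Some contigs reached the border of their intron. Within 5 nt of a border lay 6 of the 41 BAT contigs (14.6%, interval 5.57 to 29.2), with 28.4% over all BAT contigs. They were 3 contigs of Ppargc1b introns 10 and 11, 2 of Ebf1 introns 2 and 15 and 1 of Ebf2 intron 16. None of the 5 cardiomyocyte, 3 soma and 19 dendrite contigs did so, and over all contigs of these lists the shares were 32.6%, 14.4% and 8.81%.

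A list of 95 other regulators of brown fat was counted in the same way. Of these, 63 were in any mouse list and 53 of the 63 (84.1%) in BAT cells, close to the share of all genes, and 30 of the 53 had an intron with at least 256 reads, beside 40.2% of all genes of the list. Their median was 421 reads, against 169 over all genes of the BAT list. The listed regulators had a higher median than all genes in each of the other lists too, with 1268 reads against 158 in cardiomyocytes, 66.0 against 46.0 in mouse somas, 172 against 78.0 in mouse dendrites, 93.5 against 54.0 in rat somas and 40 against 32 in rat dendrites. The highest in BAT cells were the cAMP response factor Creb1 with 34770 reads, its coactivator Crebbp with 30503, the cytokine signal factor Stat5b with 25546, the retinoblastoma relative Rbl2 with 11461 and the corepressor Ncor1 with 5495. All 5 had fewer reads there than Pparg. In cardiomyocytes 40 of the 95 were listed (42.1%), in mouse somas 36 (37.9%) and in mouse dendrites 46 (48.4%), beside 31.6%, 30.1% and 43.9% of the annotated genes with introns. In BAT cells the 53 were 55.8% of the 95, beside 52.0% of the annotated genes. Rat somas held 18 (18.9%) and rat dendrites 25 (26.3%) of the 95. Without a rat annotation the share of all rat genes is not known, so these 2 counts have no share beside them. Cebpa and Cebpb, which act with Pparg in fat cells, have no introns and could not be listed. They stay among the 95, so shares of the 95 and of the annotated genes with introns have unlike bases.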

How the data were processed

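Paired-end Illumina reads were aligned by the authors with RUM, and uniquely placed intronic reads were counted. The submitters' processing notes name the builds mm9 and rn4. The authors dropped introns that hold a predicted gene or a known poly(A) site, joined nearby reads into contigs, and pooled the libraries of a group. The deposited values are raw read counts per intron, repeated on each of its contigs (15282 introns with several contigs each carried a single count), and were taken a single time per transcript and intron. The libraries did not keep strand, so reads of antisense transcripts cannot be told apart. The labels name 6 BAT and 9 cardiomyocyte libraries, of which the study describes fewer, so the number in each pooled list is not certain.

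Values were computed in Python 3.11.15 (pandas 2.3.3, numpy 2.4.6, scipy 1.17.1). Sequences came from the genome through pysam 0.24.0, and matplotlib 3.10.9 drew the plots. Starts were shifted by 1 to count from 1. Of 13156 mouse transcripts 97.8% matched a GENCODE M1 transcript of NCBIM37 (mm9) in which each contig lay in the intron of the stated number, all 8 of the regulators included. Rat introns without reads and rat sequence were not analysed here. Intervals are exact at 95% and cover counting error only, with each read taken as independent. In the BAT list 583 genes had 2 reads, against 113 with 1 and 128 with 3. Both mates of a pair were thus probably counted. Mates and copies made by amplification are not independent, so the intervals are too narrow. The lists do not give the depth of each library, which was not used here. Functions were tested on simulated data. No test between groups was possible with 1 list each, and a 4-fold difference in RPM was called. The regulators, gene lists and markers were chosen with earlier results of these data known. All regulators are named, with every intron in several lists, the 5 highest of the other regulators, the 2 highest markers and the 3 nearest genes. The nearness is the Euclidean distance of log10(RPM + 1), where RPM is reads per 1000000 reads of the list. The counts of copies of 20 nt stretches and of contigs near intron borders were added after seeing the data.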

Additional observations from a re-analysis of the deposited data

How the results depend on the processing

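No paired analysis was possible because the lists pool their libraries, and for the same reason no library could be left out. Of 139 values recomputed under the alternatives, 19 counts of regulators or contigs and 9 values of single genes moved, and no ratio that was called changed sign. With at least 32 reads in 1 intron, listed regulators went from 7 to 5 in BAT cells, from 4 to 1 in cardiomyocytes, from 3 to 0 in mouse somas, from 4 to 3 in mouse dendrites, from 3 to 0 in rat somas and from 2 to 1 in rat dendrites. Of all genes, 67.9%, 64.8%, 54.1%, 62.4%, 55.1% and 48.6% were kept in these lists. With at least 256 reads they were 3 in BAT cells, 1 in cardiomyocytes, 0 in mouse somas, 2 in mouse dendrites, 0 in rat somas and 1 in rat dendrites, beside 40.2%, 42.9%, 18.7%, 23.5%, 30.4% and 15.8% of all genes. The calls of lower regulators against cardiomyocytes went from 2 to 1 with raw reads and to 1 with reads divided by the median of the list, which lost Ebf3. BAT contigs followed by an A tract went from 4 to 7 with at least 8 adenines, to 8 within 1000 nt and to 7 from 60 nt inside the contig, while the share of all BAT contigs went from 7.36% to 11.6%, 13.1% and 11.5%. From 60 nt inside, cardiomyocyte contigs went from 0 to 1 of 5 (all contigs 9.53% to 17.6%) and dendrite contigs from 1 to 2 of 19 (all contigs 8.11% to 14.6%), and dendrite contigs were also 2 with at least 8 adenines (all contigs 12.5%). The share of regulator introns listed, against that of other transcripts, turned with at least 32 reads in BAT cells (21.4% against 21.8%, then 19.3% against 14.6%) and cardiomyocytes (8.16% against 14.7%, then 14.3% against 11.9%). With contigs of at most 400 nt Pparg kept its count of 52450 BAT reads, since each of its listed introns holds such a contig. In intron 5 this is the 183 nt contig alone, whose part of the 49886 reads is not known. Under the same limit the BAT reads were at most 130 for Ebf2 and 21 for Ppargc1b. Regulators called higher than in cardiomyocytes then went from 2 to 1, with a log2 ratio of 0.67 for Ppargc1b in place of 3.31, and the BAT to soma log2 ratio of Ebf2 went from 6.69 to 2.91. The scaling moved the BAT to cardiomyocyte log2 ratio of Zfp423 from -2.68 to -2.13 (raw) and -2.23 (median). Raw reads moved the BAT to soma log2 ratios to 8.27 for Prdm16, 3.81 for Ebf1 and 9.96 for Ebf2. Counts of 2 to 15 reads limit what can be said of Ebf3, of Ppargc1a and of the mouse somas.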
